A study of Homo sapiens with 8 samples.

Results

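The histone genes of LX-2 cells were taken as all table rows whose symbol begins with HIST1H to HIST4H, H1F, H2AF or H3F, the older histone names. The rule found 58 of 14870 rows. Of these, 45 were clustered genes (HIST symbols) and 11 were replacement variants (H1F, H2AF and H3F symbols). The clustered class includes 2 rows annotated as pseudogenes, HIST2H2BA and HIST2H2BC, which stay in its counts and medians. Of the rest, 1 was H3F3AP4, a processed pseudogene of a replacement gene, and 1 was H1FX-AS1, an antisense RNA that is no histone gene. LX-2 is a transformed human hepatic stellate cell line, grown here in DMEM with 2% FBS. All 8 samples received recombinant human TGF-β1 for 72 h, at a dose that no source used here states. The DMSO group (4 samples) also received the solvent, and the ML290 group (4 samples) received 5 µM ML290, a synthetic compound that activates RXFP1, the receptor of the hormone relaxin. No group went without TGF-β1.

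Histones package DNA into nucleosomes, each wrapped around H2A, H2B, H3 and H4, with H1 bound to the linker. The clustered genes are transcribed mainly in S phase, when new DNA needs packaging, and most of their messages end in a conserved stem-loop instead of a poly(A) tail. SLBP binds this stem-loop and carries the message through processing, translation and decay. Replacement variants are made throughout the cell cycle from polyadenylated messages and enter chromatin outside replication. Some clustered genes also give polyadenylated messages, which has been described in cells that leave the cell cycle.

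Values are the authors' group means, 1 normalised read count per gene and group over 4 samples, with the authors' adjusted p from a test that no source used here names. No value per sample was used, so no SD stands beside them. The labels do not say whether the 4 samples of a group came from separate cultures, so the p-values cover the spread between these samples, which may be technical. If the values are scaled to 1000000 reads, the steps between low values put an ML290 library at about 19100000 reads and a DMSO library at 21000000. The labels call the libraries mRNA sequencing, and the selection step, which bears on messages without a poly(A) tail, is not given. For the cell type, 10 of 12 stellate markers were among the rows, with DES and LRAT not among those used here. Markers of other cells were listed for 1 of 6 hepatocyte, 4 of 6 immune, 2 of 5 endothelial and 2 of 5 epithelial symbols. Most of the markers of other cells lay at a low mean level, apart from CD68 at 53.4 and SOX9 at 38.6. Stellate markers ran from 0.897 for DCN to 3021 for COL1A1, with LUM and RGS5 also low at 2.89 and 1.43. Several markers moved with ML290 per the authors' deposited table. Of the 10 stellate markers, 8 fell and 1 rose, against 15.6% and 19.5% of all rows. CD68 and SOX9 rose 2.04-fold and 1.19-fold, and KRT7 and CD14 fell 1.80-fold and 1.5-fold, per the authors' deposited table. The part of such shifts in the histone and S-phase values was not tested. Bulk samples cannot tell fewer cells of a kind from less RNA per cell.

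The stem-loop is shown first because it is what sets most clustered messages apart. It was searched in the GENCODE 29 transcripts (GRCh38) as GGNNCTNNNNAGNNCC on the transcript strand, with the 6 bases at each end able to pair across a loop of 4 bases. Of 43 clustered genes annotated as protein-coding, 25 held it (58.1%), against 0.844% of 19669 protein-coding genes. Of the other clustered models, 14 end less than 30 bases after the stop codon and so could not show it. Among 11 replacement variants only H2AFX held it (9.09%). Capitals mark the stem and loop, and the lower-case bases are its flanks:
HIST1H2AC (chr6:26124669-26124684, plus strand): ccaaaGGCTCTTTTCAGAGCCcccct
HIST1H2BC (chr6:26123472-26123487, minus strand): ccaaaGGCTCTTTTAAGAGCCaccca
HIST2H2BE (chr1:149886188-149886203, minus strand): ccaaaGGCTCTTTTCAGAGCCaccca
HIST3H2A (chr1:228457369-228457384, minus strand): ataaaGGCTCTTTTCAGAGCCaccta
HIST1H4J (chr6:27824459-27824474, plus strand): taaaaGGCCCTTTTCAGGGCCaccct
H2AFX (chr11:119094898-119094913, minus strand): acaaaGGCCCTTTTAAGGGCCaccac
The form of HIST1H2AC was shared by 14 clustered genes of the H2A, H2B and H3 families, while 4 H4 genes shared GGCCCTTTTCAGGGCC and 3 more H4 genes shared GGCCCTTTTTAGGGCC. A transcript running at least 300 bases past the stem-loop was annotated for 17 of the 25 genes, and 19 of 23 such transcripts had AATAAA or ATTAAA in their last 50 bases. Of those 17 genes, 2 fell and 2 rose with ML290, beside 15.6% and 19.5% of all rows.

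By the authors' deposited table, 11 of the 58 rows fell with ML290 and 2 rose (adjusted p under 0.05), 22.4% in all. The same threshold was passed by 35.1% of all rows, 15.6% lower and 19.5% higher, so the histone share was below that of all rows. At an unadjusted p under 0.05, 44% of all rows passed, 19.9% lower. By mean level, 2 of 23 clustered rows under 1 were called, against 9.34% of all such rows. From 1 to 10, 2 of 15 clustered rows were called, 13.3%, with 1 lower and 1 higher, against 28.5% of all such rows. Among rows with a mean level of at least 10, 4 of 7 clustered rows and 4 of 8 replacement rows were lower and none was higher, against 44.2% of all such rows called, 18.7% lower and 25.4% higher. All 15 of these rows had a ratio below 1, against 4048 of all 8860 rows at that level. Among the 15, HIST2H2AA3 and HIST2H2AA4 carry identical values, and counting these once leaves 4 of 6 clustered rows lower. The median log2 ratio was -0.15 over the clustered and -0.15 over the replacement rows, against 0.02 over all rows.

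**Figure D1:**
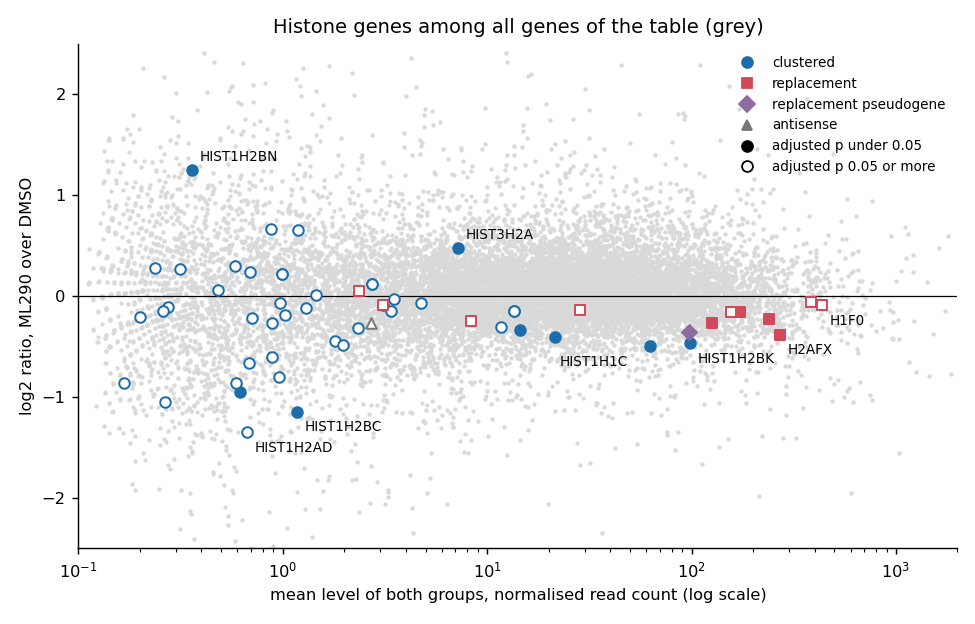
Mean level of both groups (x axis, log scale, normalised read count) against the log2 ratio of ML290 over DMSO (y axis) for histone rows by class, with all rows in grey (log2 ratios beyond 2.5 either way and the highest levels not drawn). Filled symbols passed an adjusted p under 0.05. All clustered genes at a level of 10 or more lie below 0, and those under 1 spread to both sides.

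Of the 45 clustered rows, 6 fell and 2 rose, 17.8% called and 13.3% lower. Of the 11 replacement rows, 4 fell and none rose, 36.4%. All rows had 35.1% called and 15.6% lower, so the clustered class was called less often than all rows. The summed level of the clustered class rested on few genes. Summed over the class, the group means were 323.7 with DMSO and 254.0 with ML290, 1.27-fold lower, and HIST1H2BK held 34.02% and HIST1H1C 21.7% of the summed level. HIST1H2BK, which encodes an H2B, fell from 114.0 with DMSO to 82.5 with ML290 per the authors' deposited table, 1.38-fold (adjusted p = 0.000258). HIST1H1C, the linker histone H1.2, fell from 73.2 to 51.9 per the authors' deposited table, 1.41-fold (adjusted p = 9.57e-05). Both are on chromosome 6, HIST1H1C from 26055787 to 26056428 and HIST1H2BK from 27146418 to 27146798 on GRCh38, and both models hold little beyond the coding sequence, so neither could show a stem-loop. Of the 100-base stretches of HIST1H2BK, 28.4% also occur in H2BFS transcripts, whereas none of HIST1H1C occurs in another gene.

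HIST1H2AC, an H2A gene, fell from 24.6 to 18.5 per the authors' deposited table, 1.33-fold (adjusted p = 0.00519). HIST2H2BE, an H2B gene of the chromosome 1 cluster, fell from 16.1 to 12.7 per the authors' deposited table, 1.27-fold (adjusted p = 0.00913). These genes and HIST1H2BK, HIST1H1C, HIST1H2BD and HIST1H2BJ make up a list of 6 clustered genes known to give polyadenylated messages, which carried 73.2% of the clustered level. Of the 6, 4 fell and none rose, with a median log2 ratio of -0.37, and the other 39 clustered rows had 2 lower and 2 higher with a median of -0.15. The 39 are not a set without polyadenylated messages. Among them, HIST1H3H and HIST3H2A have annotated transcripts running 769 and 390 bases past the stem-loop. Both transcripts hold AATAAA or ATTAAA in their last 50 bases. The list was also chosen with earlier results of these data known. These groups also differ in level, with a median mean level of 18.0 for the 6 and 0.963 for the 39. Calls among all rows run from 9.34% under a level of 1 to 44.2% at 10 or more, and the part of level in the contrast was not tested. HIST1H2BD had 12.9 with DMSO and 10.4 with ML290 per the authors' deposited table, just outside the threshold (adjusted p = 0.0546). HIST1H2BJ had 3.17 and 2.99 per the authors' deposited table (adjusted p = 0.674).

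Larger folds came from genes at low levels. HIST1H2BC fell from 1.62 to 0.731 per the authors' deposited table, 2.21-fold (adjusted p = 0.00234), which is about 136 against 55.9 reads over the 4 libraries of a group. HIST1H2AL fell from 0.810 to 0.419 per the authors' deposited table, 1.93-fold (adjusted p = 0.0326), about 68.1 against 32.1 reads. HIST1H2BN rose from 0.213 to 0.508 per the authors' deposited table, 2.38-fold (adjusted p = 0.0400), about 17.9 against 38.9 reads. HIST1H2AK lies within an exon of HIST1H2BN on the opposite strand, and 100% of its 100-base stretches occur there. Since the strand setting is not given, reads of HIST1H2AK and of that exon cannot be told apart. HIST1H2AL also touches HIST1H2BN, on the same strand, but 0% of its 100-base stretches occur in another gene. HIST1H2AD had the lowest ratio of all clustered rows, 0.961 against 0.378 per the authors' deposited table, and did not pass (adjusted p = 0.413). Of its 100-base stretches, 97.6% also occur in AL031777.3, which overlaps it on the same strand.

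HIST3H2A, an H2A gene of a small cluster on chromosome 1 (228456979 to 228457873), was the other gene that rose, from 6.03 with DMSO to 8.39 with ML290 per the authors' deposited table, 1.39-fold (adjusted p = 0.0455). It shares no 100-base stretch with another gene, and about 507 and 642 reads lie behind its means.

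**Figure D2:**
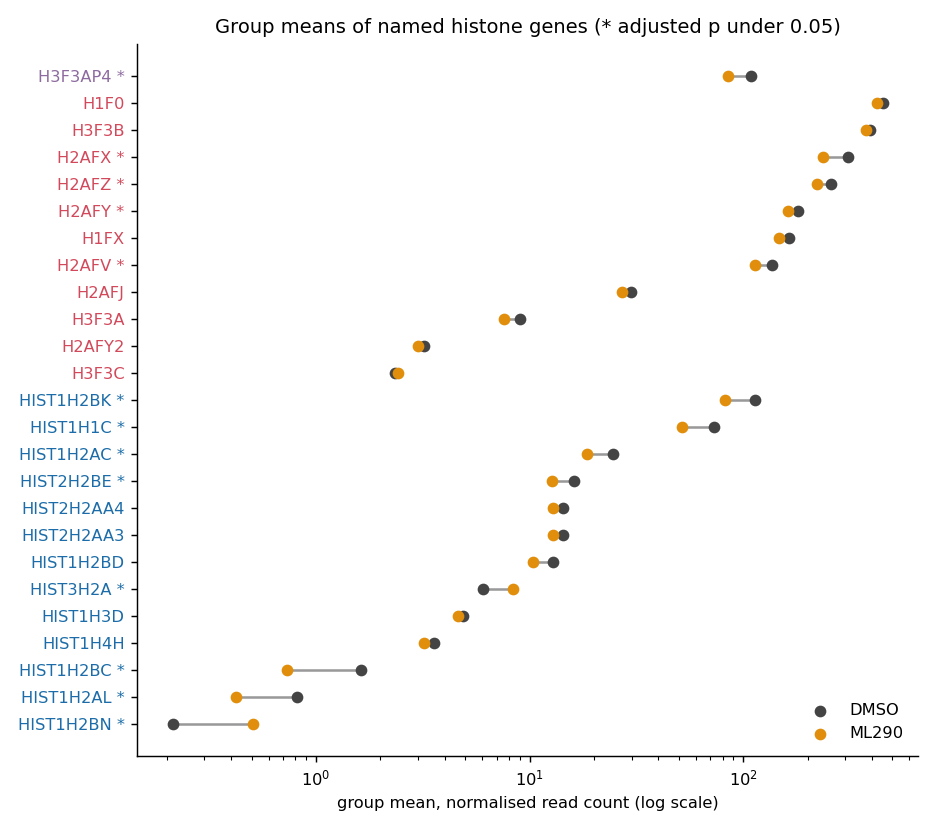
Group means of the named histone genes (x axis, log scale, normalised read count) with DMSO in grey and ML290 in orange, by class from clustered (blue names) to replacement (red) and the pseudogene H3F3AP4 (purple). Points are the authors' means of 4 samples without error bars, and an asterisk marks an adjusted p under 0.05. HIST3H2A and HIST1H2BN are the 2 marked genes with the orange point to the right.

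By family, the clustered H1 rows had 1 of 3 lower, H2A had 2 lower and 1 higher of 12, and H2B had 3 lower and 1 higher of 12. The shares called were 33.3%, 25% and 33.3%, none above the 35.1% of all rows, of which 15.6% were lower and 19.5% higher. No clustered H3 or H4 row, 9 of each, passed the authors' adjusted p, and at an unadjusted p under 0.05 there was 1 H3 row and 0 H4 rows per the authors' deposited table. The highest H3 gene, HIST1H3D, had 4.88 and 4.64 (adjusted p = 0.666), and the highest H4 gene, HIST1H4H, had 3.55 and 3.20 (adjusted p = 0.486), DMSO first, per the authors' deposited table. All 100-base stretches of HIST1H3D also occur in AL031777.3, an overlapping gene on the same strand, so its level may not be its own. Median log2 ratios were -0.49 for H1, -0.24 for H2A, -0.20 for H2B, -0.11 for H3 and 0.12 for H4. The H3 and H4 rows were low, with median levels of 0.888 and 0.689, which limits what could be seen in them. Of all rows with a mean level under 1, 9.34% were called. Differences between families were not tested.

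**Figure D3:**
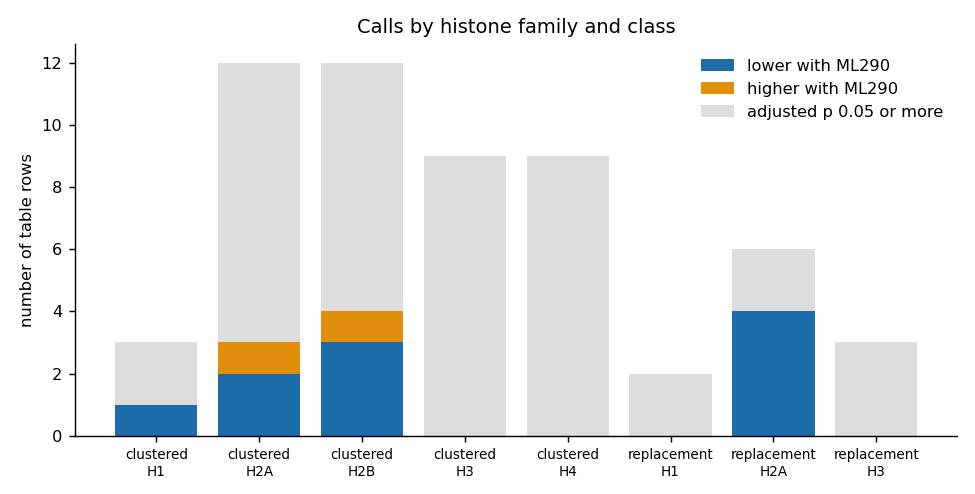
Number of table rows (y axis) in each histone family of the clustered and replacement classes (x axis), stacked by whether the authors' adjusted p was under 0.05 and in which direction. Calls lie in clustered H1, H2A and H2B and in replacement H2A, and the bars of 9 clustered H3 and 9 clustered H4 rows hold none. Of all rows, 35.1% passed this threshold. The pseudogene H3F3AP4 and the antisense row are not drawn.

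Some of these rows are not separate measurements. HIST2H2AA3 and HIST2H2AA4 carry identical values, 14.3 with DMSO and 12.8 with ML290 per the authors' deposited table (adjusted p = 0.215), and so do HIST2H3A with HIST2H3C and HIST2H4A with HIST2H4B. These are duplicated genes on chromosome 1 whose transcripts share 94.9 to 100% of their 100-base stretches. Counting each pair once leaves 55 rows with the same 11 lower and 2 higher. In all, 14 members share at least 50% of these stretches with another gene.

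Many H2A and H2B genes stand head to head, and 9 such pairs had at least 1 listed gene, with start sites 194 to 248 bases apart. The region between HIST1H2BC and HIST1H2AC is shown because both genes fell, beside the promoters of the other clustered genes that fell at a level of at least 10 and of H2AFZ and H2AFX for the replacement class. Sequences are the 250 bases before the RefSeq start site (GRCh38.p14), 5′ to 3′ on the gene's strand. Capitals mark CCAAT, the TATA box sequence TATAAA and the octamer ATTTGCAT, on either strand, and overlapping matches run together:
HIST1H2AC (chr6:26123922-26124171, plus strand): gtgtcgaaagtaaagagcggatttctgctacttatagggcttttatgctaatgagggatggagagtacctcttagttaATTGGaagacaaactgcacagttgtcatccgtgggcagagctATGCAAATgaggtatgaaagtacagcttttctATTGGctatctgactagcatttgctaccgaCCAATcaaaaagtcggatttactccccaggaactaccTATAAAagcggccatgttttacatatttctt
HIST1H2BK (chr6:27146856-27147105, minus strand): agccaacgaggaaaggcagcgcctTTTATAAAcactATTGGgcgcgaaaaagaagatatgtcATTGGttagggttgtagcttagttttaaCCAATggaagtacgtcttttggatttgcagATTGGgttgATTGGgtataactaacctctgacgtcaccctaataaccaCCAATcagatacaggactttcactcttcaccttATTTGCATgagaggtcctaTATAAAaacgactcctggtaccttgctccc
HIST2H2BE (chr1:149886683-149886932, minus strand): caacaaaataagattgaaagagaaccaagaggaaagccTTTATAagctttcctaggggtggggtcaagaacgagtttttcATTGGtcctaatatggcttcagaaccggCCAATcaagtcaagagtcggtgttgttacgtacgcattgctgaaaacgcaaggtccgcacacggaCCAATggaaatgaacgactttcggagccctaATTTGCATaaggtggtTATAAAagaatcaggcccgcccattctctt
HIST1H1C (chr6:26056471-26056720, minus strand): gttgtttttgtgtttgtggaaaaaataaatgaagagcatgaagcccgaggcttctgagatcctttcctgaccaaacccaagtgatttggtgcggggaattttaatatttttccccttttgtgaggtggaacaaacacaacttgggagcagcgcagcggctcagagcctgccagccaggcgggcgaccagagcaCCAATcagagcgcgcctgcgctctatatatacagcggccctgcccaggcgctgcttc
H2AFZ (chr4:99950276-99950525, minus strand): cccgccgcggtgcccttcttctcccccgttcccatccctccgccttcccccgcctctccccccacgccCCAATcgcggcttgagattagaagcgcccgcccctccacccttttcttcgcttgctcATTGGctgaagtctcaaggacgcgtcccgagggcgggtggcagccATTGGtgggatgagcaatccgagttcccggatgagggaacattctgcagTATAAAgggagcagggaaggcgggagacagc
H2AFX (chr11:119095466-119095715, minus strand): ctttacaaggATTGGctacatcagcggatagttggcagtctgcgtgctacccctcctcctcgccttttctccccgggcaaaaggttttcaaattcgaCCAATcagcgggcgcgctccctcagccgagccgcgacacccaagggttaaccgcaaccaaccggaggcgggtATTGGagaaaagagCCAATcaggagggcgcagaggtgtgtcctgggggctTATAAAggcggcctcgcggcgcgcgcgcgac
In the full windows of 250 bases before to 50 after the start, 41 clustered and 9 replacement genes matched a RefSeq promoter. CCAAT was in 82.9% of the clustered, 77.8% of the replacement and 35.7% of all 27305 promoters. TATAAA was in 63.4%, 44.4% and 11.95%. The octamer, a binding sequence of POU2F1 known from H2B promoters, was in 36.6%, 11.1% and 1.80%, namely in 8 of 10 H2B and 7 of 12 H2A clustered promoters and in none of 3 H1, 8 H3 and 8 H4. The windows of head-to-head H2A and H2B partners both cover the region between them. The same match can therefore be counted for both genes, and these counts are not independent. The sequences TTTCCCGC and TTTGGCGC, known to be bound by E2F factors, were in none of the clustered or replacement windows, against 1.66% and 0.659% of all promoters. A match is a description of these letters and not a bound site.

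Of the 6 pairs with both genes listed, HIST1H2BC with HIST1H2AC, 246 bases apart, was the 1 in which both fell. HIST2H2BE fell while its partner HIST2H2AC, 236 bases away, had 0.358 with DMSO and 0.172 with ML290 per the authors' deposited table (adjusted p = 0.132). HIST1H2BG and HIST1H2AE both had ratios below 1, 0.763 against 0.655 and 2.08 against 1.53, DMSO first, per the authors' deposited table (adjusted p = 0.599 and 0.0684). HIST1H2BJ and HIST1H2AG lay near no difference, at 1.06-fold and 1.02-fold lower per the authors' deposited table (adjusted p = 0.674 and 0.828). HIST1H2AM and HIST1H2BO had ratios on either side of 1, with adjusted p of 0.760 and 0.934 per the authors' deposited table. HIST1H2BN rose, and its partner HIST1H2AK had 0.522 and 0.641 per the authors' deposited table (adjusted p = 0.501).

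**Figure D4:**
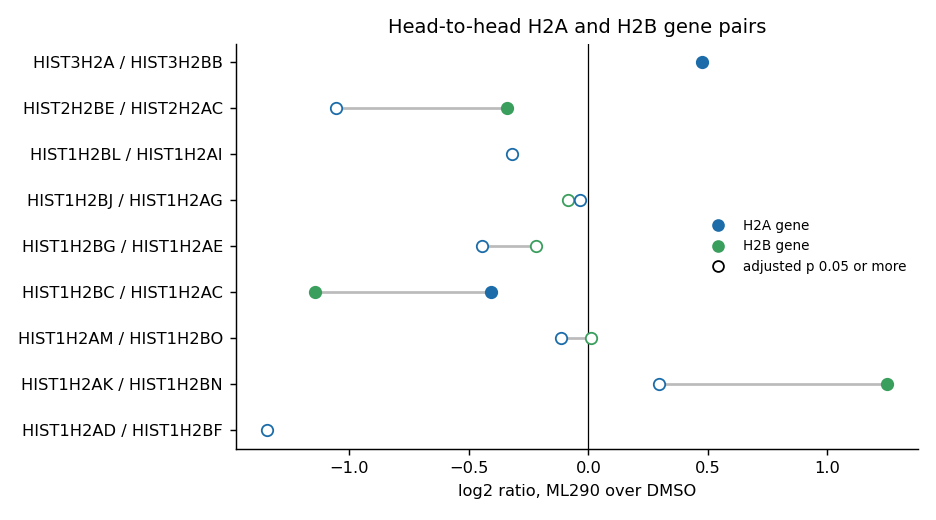
Log2 ratio of ML290 over DMSO (x axis) for head-to-head gene pairs (y axis), H2A genes in blue and H2B genes in green. Filled points passed an adjusted p under 0.05, and a pair with 1 point has a partner that is not among the rows used here. HIST1H2BC with HIST1H2AC is the pair in which both points are filled and below 0.

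Replacement variants stood at higher levels than most clustered genes, and their log2 ratios lay between -0.38 and 0.05. Per kb of merged GENCODE 29 exon, the median level was 26.4 for the 11 replacement variants and 1.48 for the 45 clustered rows. The highest clustered genes were HIST1H2BK at 257.9 per kb and HIST1H1C at 97.4 per kb, against a replacement range of 1.56 to 186.4, and short coding-only models raise such values. Summed group means of the replacement class were 1937 with DMSO and 1720 with ML290, 1.13-fold lower.

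All calls among the replacement variants were in H2A, with 4 of 6 lower and none higher. Of all rows with a mean level of at least 10, 44.2% were called and 18.7% were lower. The pseudogene H3F3AP4, counted apart from these variants, also fell, and its reads cannot be told from those of H3F3A with certainty. H2AFX, the H2A.X variant that is phosphorylated at DNA breaks, fell from 308.2 to 236.4 per the authors' deposited table, 1.30-fold (adjusted p = 0.00386). It is also the replacement gene with a stem-loop in its message. H2AFZ and H2AFV encode the H2A.Z variants, found at promoters of active and poised genes. H2AFZ fell from 257.8 to 220.6 per the authors' deposited table, 1.17-fold (adjusted p = 0.00344). H2AFV fell from 137.1 to 113.5 per the authors' deposited table, 1.21-fold (adjusted p = 0.00403). H2AFY, the macroH2A1 variant of silent chromatin, fell from 181.3 to 162.9 per the authors' deposited table, 1.11-fold, just inside the threshold (adjusted p = 0.0467). C5orf66 overlaps H2AFY on the opposite strand, and 24.1% of the 100-base stretches of H2AFY occur in it. Its relative H2AFY2 had 3.190 with DMSO and 3.004 with ML290 per the authors' deposited table (adjusted p = 0.696). H2AFJ, a variant reported to build up in senescent human fibroblasts, had 29.9 and 27.1 per the authors' deposited table (adjusted p = 0.226).

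The linker variants did not pass the threshold. H1F0, the H1.0 histone that accumulates in cells at rest, had the highest mean level of all members, 451.1 with DMSO and 422.9 with ML290 per the authors' deposited table (adjusted p = 0.264). H1FX, or H1.10, had 163.4 and 146.9 per the authors' deposited table (adjusted p = 0.138). The antisense row H1FX-AS1, whose exons overlap those of H1FX, had 2.95 and 2.46 per the authors' deposited table (adjusted p = 0.285).

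H3.3 is encoded by H3F3A and H3F3B, and is laid down at active genes by HIRA and at telomeres and silent repeats by DAXX and ATRX. H3F3B had 394.0 with DMSO and 377.0 with ML290 per the authors' deposited table (adjusted p = 0.416). H3F3A had 9.03 and 7.60 per the authors' deposited table (adjusted p = 0.348). The pseudogene H3F3AP4 on chromosome 2 fell from 108.6 to 84.9 per the authors' deposited table, 1.28-fold (adjusted p = 0.00893). All of its 100-base stretches occur in H3F3A transcripts, and they make up 10.3% of those of H3F3A, so reads from these stretches cannot be assigned to 1 of them with certainty. Added together the pair had 117.6 with DMSO and 92.5 with ML290. H3F3C, the H3.5 gene known from testis, had 2.33 and 2.41 per the authors' deposited table (adjusted p = 0.876) and was the lone replacement variant with a ratio above 1.

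Of 22 genes that process histone messages or control their transcription, 4 fell and 1 rose per the authors' deposited table, with a median log2 ratio of -0.05. That is 22.7% called and 18.2% lower, against 35.1% and 15.6% of all rows. The median mean level of the list was 24.7. Among all rows with a mean level of at least 10, 44.2% were called and 18.7% were lower. SLBP had 74.3 with DMSO and 79.5 with ML290 (adjusted p = 0.394), and NPAT, the coactivator of clustered histone genes, had 24.0 and 23.5 (adjusted p = 0.829), per the authors' deposited table. CDK2, the kinase that phosphorylates NPAT with cyclin E, fell from 99.3 to 74.9 per the authors' deposited table, 1.33-fold (adjusted p = 2.96e-05). The cyclin gene CCNE2 fell 1.36-fold (adjusted p = 0.0194), and CCNE1 had 4.83 and 5.47 (adjusted p = 0.233), per the authors' deposited table. SYMPK, the scaffold of the cleavage complex, rose 1.25-fold (adjusted p = 0.00218), and the cap-bound factor SRRT fell 1.15-fold (adjusted p = 0.0199), per the authors' deposited table. CPSF3, the nuclease that cuts the message after the stem-loop, fell 1.23-fold per the authors' deposited table (adjusted p = 0.0220).

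Of 33 histone chaperones and their partners listed of 34, 13 fell and 4 rose per the authors' deposited table, with a median log2 ratio of -0.14. That is 51.5% called and 39.4% lower, against 44.2% and 18.7% of all rows with a mean level of at least 10. ANP32E, which removes H2A.Z from nucleosomes, fell from 65.4 to 48.9 per the authors' deposited table, 1.34-fold (adjusted p = 0.00700). NASP, the store of soluble H3 and H4, fell from 152.8 to 115.4 per the authors' deposited table, 1.32-fold (adjusted p = 5.97e-05). ASF1B, which passes H3 and H4 on during replication, fell 1.26-fold (adjusted p = 0.00175), while CHAF1A, the large subunit of the replication-coupled CAF-1, had 107.3 and 104.3 (adjusted p = 0.632), per the authors' deposited table. HJURP and OIP5, which serve the centromere variant CENP-A, fell 1.38-fold and 1.62-fold (adjusted p = 2.93e-05 and 0.000123) per the authors' deposited table. UBN2, a HIRA partner, rose from 19.8 to 29.9 (adjusted p = 0.000104), and HIRA itself had 37.2 and 37.6 (adjusted p = 0.912), per the authors' deposited table. DAXX had 70.9 with DMSO and 37.2 with ML290 per the authors' deposited table and did not pass (adjusted p = 0.0636). ATRX is not among the rows used here.

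Of 32 S-phase genes, 20 fell and 2 rose per the authors' deposited table, with a median log2 ratio of -0.24 against 0.02 over all rows. That is 68.8% called and 62.5% lower, against 44.2% and 18.7% of all rows with a mean level of at least 10. TYMS and TK1, which make thymidine nucleotides, fell 1.34-fold and 1.28-fold (adjusted p = 6.68e-05 and 0.000642) per the authors' deposited table. The fork subunits GINS4 and GINS2 fell 1.36-fold and 1.42-fold (adjusted p = 5.70e-05 and 0.000141), and the helicase subunit MCM6 fell 1.31-fold (adjusted p = 0.000206), per the authors' deposited table. The 2 higher ones were CDT1, 1.30-fold, and E2F1, 1.25-fold (adjusted p = 0.00385 and 0.00622), per the authors' deposited table. The part of S-phase cell numbers in the histone values was not tested. SLBP, CCNE1, CCNE2, CHAF1A, CHAF1B and MCM2 each stand in 2 of these lists.

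**Figure D5:**
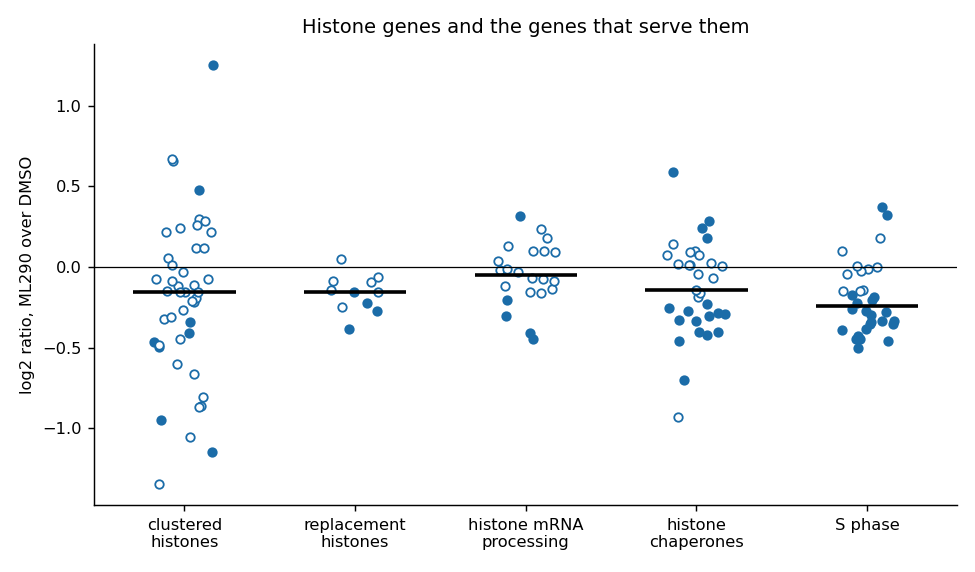
Log2 ratio of ML290 over DMSO (y axis) for each clustered and replacement histone gene and for each gene of the histone mRNA processing, chaperone and S-phase lists (x axis). Filled points passed an adjusted p under 0.05, black bars are medians, and points are spread sideways for sight alone. Medians lie between -0.24 (S phase) and -0.05 (histone mRNA processing).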

How the data were processed

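RNA of 8 samples was sequenced. The submitters' processing notes name STAR, Partek and the GRCh38 build, without roles. No source used here gives the normalization, annotation, strand setting or statistical test. The group means and totals that the authors deposited are a signal (normalised reads per gene), not divided by gene length as far as their read steps show. The ratio and the signed fold (a score) that the authors deposited compare ML290 with DMSO, and the p-value and step-up adjusted p-value are theirs too. Computed here were log2 ratios, mean levels, counts at an adjusted p under 0.05, medians, read steps, annotation overlaps and shared 100-base stretches against GENCODE 29, to which all 58 symbols matched. Read steps used 1015 ML290 and 961 DMSO values under 1.5 when summed over 4 libraries. Of these, 81.7% and 93.8% lay within 0.15 of a whole read once a fitted offset was taken off. Step and offset were fitted to these same values, so the shares are no independent check of the step. The read counts given for genes leave the offset out. GENCODE 29 has 71 clustered and 16 replacement protein-coding genes under the rule, and 43 and 11 of them were listed. Without values for single samples, no new test was run. The 50 promoters were matched by older symbol and position. Tables were handled in pandas 2.3.3 (Python 3.11.15, numpy 2.4.6) and figures drawn with matplotlib 3.10.9; adjustment and step search were tested on simulated data.

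Named genes were every replacement variant, clustered genes that passed or had a mean level of at least 5, the highest gene of each family, those next to the threshold, and in each further list the 4 smallest adjusted p with 7 genes of central role. HIST1H2AD, HIST1H2BJ, CPSF3, CCNE1, ANP32E, CDT1, E2F1, TK1 and the paired genes were added after their values were seen. The members and lists were chosen with earlier results of these data known.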

Additional observations from a re-analysis of the deposited data

How the results depend on the processing

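No paired analysis was possible because the table holds group means, and for the same reason no replicate could be left out. Sample titles in the DMSO and ML290 groups end in the same digits, and no source used here says whether these pair the samples or whether the authors' p-values use a pairing. Under the settings tried, 41 of 60 summary values stayed within 1.5 times the count or 0.1 of the log2 median, and 19 moved. Counts carry no direction. Only the medians could change it, and no median did. Benjamini-Yekutieli adjustment left 6 histone rows lower and 0 higher, 3 of them clustered. A fold of at least 1.5 as well left 2 lower, both clustered, 1 higher and 0 replacement variants. An adjusted p under 0.01 left 0 higher, 1 lower histone processing gene and 2 higher chaperone genes. Adjustment over rows with a mean level of at least 1 left 1 higher and one over at least 10 left 0 higher. An unadjusted p under 0.05 gave 10 lower clustered rows. The ratio of summed clustered group means was -0.35 on the log2 scale, against a median of -0.15. HIST1H2BD passed when adjusted over rows with a level of at least 1. Of 25 named rows, 13 were called. Of these 13, 7 lost their call under Benjamini-Yekutieli adjustment and 4 at 0.01. All 25 kept their direction under a pseudocount of 1, scaling to the column sums and centring. Centring moved log2 ratios by 0.02 and scaling by 0.01, less than the log2 ratio of any named row. A pseudocount cannot turn a ratio around, so the direction could not have changed under these settings. Depth limits the 23 clustered rows with a mean level under 1, the lowest of which, HIST1H4D, had about 18.1 and 9.03 reads per group of 4 libraries.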

Other observations

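CENPA, the centromeric H3 variant, carries no symbol that the histone rule takes. By the authors' deposited table it fell from 18.02 to 11.998 with ML290 (adjusted p = 0.00023).

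The 31 clustered rows on chromosome 6 lie between 26045411 and 27893843 on GRCh38. Within that span lie 16 other rows of the table, of which the authors' deposited table has 2 lower and 3 higher. Of all rows, 15.6% were lower and 19.5% higher. The median log2 ratio of the 16 was 0.08.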
